A study of Rattus norvegicus with 8 samples.

Results

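The mevalonate pathway enzymes that lead to squalene were followed in rat liver. They comprise Acat2, Hmgcs1, Mvk, Pmvk, Mvd, Idi1, Fdps and Fdft1, taken as every non-control probe whose accession in the array files maps to one of these symbols. This gave 11 of 41012 probes and 8 of 13458 named genes, with a pair of probes each for Hmgcs1, Idi1 and Fdps. All 8 genes and all 11 probes passed the filter on dim signals, as did 26883 probes in all.

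Liver RNA of male Zucker diabetic fatty (ZDF) rats aged 12 weeks was hybridised on 8 two-colour Agilent arrays, 4 per genotype. The groups were obese rats (fa/fa) given testosterone undecanoate (TU), obese rats given vehicle, lean rats (fa/+) given TU and lean rats given vehicle. The fa allele encodes a defective leptin receptor, so the obese rats lack leptin signalling, and the lean rats are heterozygous carriers of it, not rats without the allele. TU, a long-acting testosterone ester, was given subcutaneously for 4 weeks in doses of 20 mg/kg, at 3-day intervals for the first 2 weeks and weekly for the other 2. Every array carried TU liver in Cy5 and vehicle liver in Cy3 of the same genotype, so that treatment and dye cannot be told apart. The sources used here do not say whether an RNA came from a single rat or a pool. Where they did not come from separate rats, p-values measure only the spread between these samples.

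In the mevalonate pathway, Acat2 and Hmgcs1 build HMG-CoA from acetyl-CoA in the cytosol, from which mevalonate is made. Mvk, Pmvk and Mvd phosphorylate and decarboxylate mevalonate to isopentenyl diphosphate, Idi1 isomerises it, Fdps joins the units to farnesyl diphosphate and Fdft1 (squalene synthase) makes squalene, the first committed sterol precursor. In the liver most genes of the pathway are known targets of SREBP-2, a membrane-bound transcription factor that is released when sterols in the endoplasmic reticulum fall, and whose promoter sites work together with NF-Y and Sp1 boxes.

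Promoters of 4 members are shown because 3 of them (Idi1, Hmgcs1 and Acat2) carried the differences between genotypes and Mvd had the lowest TU ratio in lean rats. Sequences are RefSeq's for build GRCr8, from 250 bases before to 50 after the annotated start, 5′ to 3′ in the gene's own direction. Capitals mark CCAAT (the NF-Y box) or GGGCGG (an Sp1 box) on either strand, so that ATTGG and CCGCCC are the same boxes on the other strand.
Idi1 promoter, GRCr8 chr17:66547475-66547774, minus strand: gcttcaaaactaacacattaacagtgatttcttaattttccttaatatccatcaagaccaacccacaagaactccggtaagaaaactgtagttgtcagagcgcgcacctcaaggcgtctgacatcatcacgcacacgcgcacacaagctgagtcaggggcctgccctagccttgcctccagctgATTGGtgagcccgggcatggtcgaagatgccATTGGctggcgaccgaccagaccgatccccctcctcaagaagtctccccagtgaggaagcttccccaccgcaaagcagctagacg
Hmgcs1 promoter, GRCr8 chr2:53382054-53382353, plus strand: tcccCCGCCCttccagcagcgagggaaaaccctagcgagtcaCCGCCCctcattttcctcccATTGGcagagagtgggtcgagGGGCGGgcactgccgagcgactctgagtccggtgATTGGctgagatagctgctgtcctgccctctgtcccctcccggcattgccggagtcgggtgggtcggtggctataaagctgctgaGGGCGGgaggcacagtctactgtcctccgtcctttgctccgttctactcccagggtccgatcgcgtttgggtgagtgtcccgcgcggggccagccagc
Acat2 promoter, GRCr8 chr1:50100590-50100889, plus strand: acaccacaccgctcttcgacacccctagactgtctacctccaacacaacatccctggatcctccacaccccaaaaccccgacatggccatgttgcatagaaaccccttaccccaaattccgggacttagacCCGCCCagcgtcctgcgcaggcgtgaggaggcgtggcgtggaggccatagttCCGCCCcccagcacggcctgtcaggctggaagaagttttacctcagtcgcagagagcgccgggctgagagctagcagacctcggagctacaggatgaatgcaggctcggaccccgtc
Mvd promoter, GRCr8 chr19:67414925-67415224, minus strand: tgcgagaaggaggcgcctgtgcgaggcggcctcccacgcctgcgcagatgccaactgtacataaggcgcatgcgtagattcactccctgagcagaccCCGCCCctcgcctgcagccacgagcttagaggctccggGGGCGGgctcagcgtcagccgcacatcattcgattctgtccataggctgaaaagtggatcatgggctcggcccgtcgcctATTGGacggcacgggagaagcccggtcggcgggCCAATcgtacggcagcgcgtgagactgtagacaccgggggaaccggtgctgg

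The promoter table matched 6 of the 8 members. It holds none for Pmvk or Fdft1. CCAAT was present in 5 of the 6, at 2 or more places in each, while 37.5% of all 33469 promoters of this length held it and 11.2% held it at 2 or more places. Its first base lay at -188 and -133 relative to the start in Hmgcs1, at -66 and -35 in Idi1, and at 5 places in Mvk. Acat2 was the member without it. GGGCGG was present in 5 of the 6, all but Idi1, and in 33.1% of all promoters. TCACNCCAC, the core of the sterol regulatory element, was found in none of the 6 windows on either strand and in 1.12% of all promoters. The palindromic androgen response element, AGAACA and TGTTCT with 3 free bases between them, was found in none of the 6 and in 5 promoters of the whole table (0.0149%). The motifs do not overlap each other in these windows, and a match describes letters, not binding. Only exact matches within windows of 300 bases were sought, so a missing match does not show that a gene lacks such an element.

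The obese arrays shared slide 2 and the lean arrays slide 1, which were scanned separately. Slide and genotype therefore cannot be told apart in any comparison of obese with lean rats. Median non-control signals in Cy3 were 39.5 to 45 on the obese and 46 to 56 on the lean arrays. In Cy5 they were 61 to 68 on the obese and 56 to 64 on the lean arrays. The spike-in RNAs read 2282 to 3367 in Cy3 on the obese and 8759 to 10154 on the lean arrays. In Cy5 they read 4688 to 8204 and 15487 to 23299. Bright-corner control spots in Cy3 read 83 to 310 on the obese and 57219 to 69822 on the lean arrays. Arrays with the same number held the same position on their slide. The SD of all log2 ratios was 0.46 on obese array 2 and 0.11 to 0.25 on the other 7. Of 9 hepatocyte markers 8 passed the filter, all but Tf. Alb, Ttr, Apoa1, Fgb, Ambp and Serpina1 stood at percentile 99.67 of signal or above, Cps1 at 90.6 and Tat at 82.6. Neither of the 2 adipocyte markers on the array passed. Marker lists of other liver cells are given beside the genotype comparisons. In whole-liver RNA, fewer cells of a type and less RNA per cell cannot be told apart.

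The member probes were well above background in both channels on every array, except Fdft1, which was so on 3 of 4 obese arrays in each channel, and none was saturated. Levels are given as normalised log2 signals and compared only within a probe. The plot of levels by array shows all of them.

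**Figure D1:**
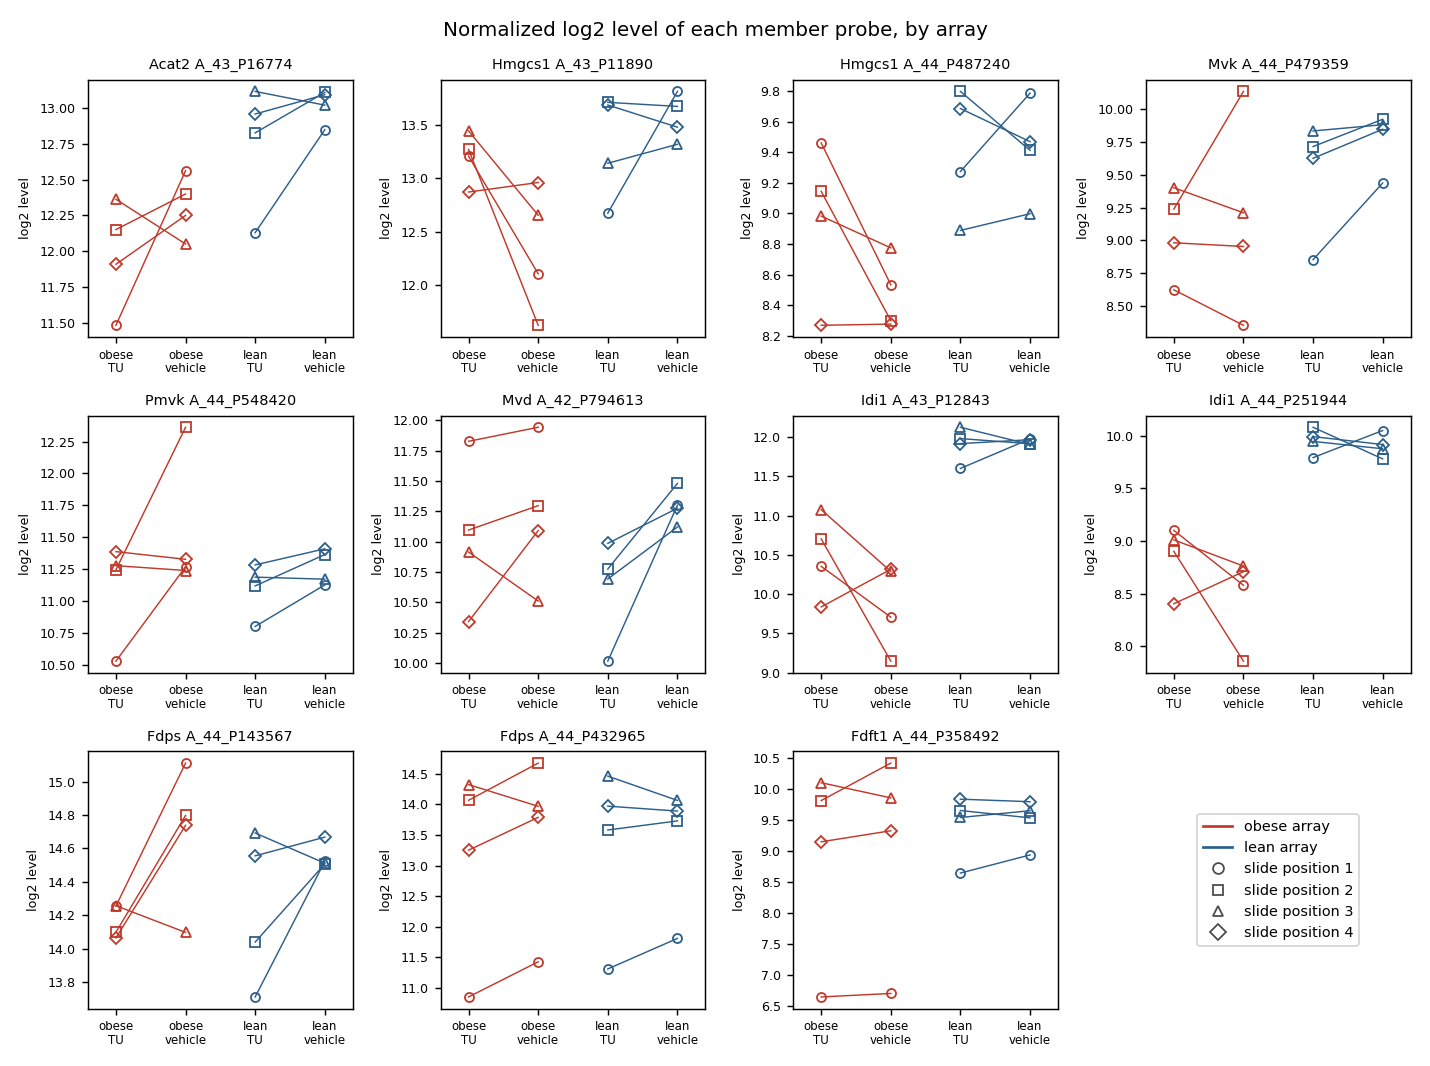
Normalised log2 level of each of the 11 member probes (vertical axes, own scale per panel) in obese TU, obese vehicle, lean TU and lean vehicle livers, where a line joins the TU and vehicle livers of 1 array and the marker gives its slide position. Both Idi1 panels have every obese value below every lean value, and Fdps A_44_P432965 and Fdft1 are low at position 1.

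The first comparison asked what TU did to these enzymes in obese rats. No member passed the adjusted threshold of 0.05 (limma, Benjamini-Hochberg adjustment over all probes), and 3 of all 26883 probes did (0.0112%). The responses of the members pointed both ways. The Hmgcs1 and Idi1 probes had the highest ratios of TU over vehicle and Fdps, Pmvk and Acat2 the lowest. An unadjusted p under 0.05 was reached by 5 of 11 member probes, against 12.7% of all probes, and the lowest adjusted p among members was 0.361. The median log2 ratio of the 8 members, each by its brightest probe, was -0.16, beside -0.0095 over all probes. It was -0.32 without obese array 3 and -0.075 without obese array 2.

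Hmgcs1 makes the HMG-CoA that enters the pathway. Its brighter probe (A_43_P11890) had log2 ratios of 1.10, 1.64, 0.79 and -0.09 on obese arrays 1 to 4, a mean of 0.86 ± 0.28 (SE of the fit, adjusted p = 0.361). The other Hmgcs1 probe (A_44_P487240) had 0.93, 0.85, 0.21 and -0.0076, a mean of 0.49 ± 0.18 (adjusted p = 0.375). Both probes were high on obese arrays 1 to 3 and near 0 on obese array 4.

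Idi1, the isopentenyl diphosphate isomerase, also had 3 obese arrays above 0. The brighter probe (A_43_P12843) gave 0.65, 1.56, 0.79 and -0.48 on obese arrays 1 to 4, with a mean of 0.63 ± 0.26 (adjusted p = 0.384). For the dimmer probe (A_44_P251944) the values were 0.52, 1.04, 0.25 and -0.30, with a mean of 0.38 ± 0.18 (adjusted p = 0.409). Obese array 2 was the highest and obese array 4 the lowest for both, and array 4 lay below 0.

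Among the enzymes with lower ratios, Fdps, which makes farnesyl diphosphate, had -0.86, -0.70, 0.16 and -0.67 on obese arrays 1 to 4 by its brighter probe (A_44_P143567, mean -0.52 ± 0.19, adjusted p = 0.374). Its other probe (A_44_P432965) gave -0.57, -0.61, 0.35 and -0.54 (mean -0.34 ± 0.18). Obese array 3 stood above 0 and the other 3 below it by both probes. Pmvk, the phosphomevalonate kinase, had -0.74, -1.12, 0.04 and 0.06 (mean -0.44 ± 0.18, adjusted p = 0.384), low on obese arrays 1 and 2 only. Acat2, the cytosolic thiolase of the first step, had -1.08, -0.25, 0.31 and -0.34 (mean -0.34 ± 0.20, adjusted p = 0.460), again with obese array 3 above 0.

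The remaining 3 enzymes stayed closer to 0 in obese rats. Mvd, which decarboxylates mevalonate diphosphate, averaged -0.17 ± 0.19, Fdft1 averaged -0.15 ± 0.12 and Mvk, the mevalonate kinase, averaged -0.10 ± 0.18, with adjusted p from 0.569 to 0.795. On obese array 3 all 8 members were above 0 by their brightest probe, whereas 5, 6 and 6 were below it on obese arrays 1, 2 and 4. The 5 on obese array 1 include Fdft1, whose ratio there (-0.056) comes from dim log2 levels of 6.71 under vehicle and 6.65 under TU. None of 11 measured genes of sterol synthesis after squalene was called, with Msmo1 highest (0.67 ± 0.29, adjusted p = 0.390) and Dhcr7 lowest (-0.44 ± 0.17, adjusted p = 0.382).

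**Figure D2:**
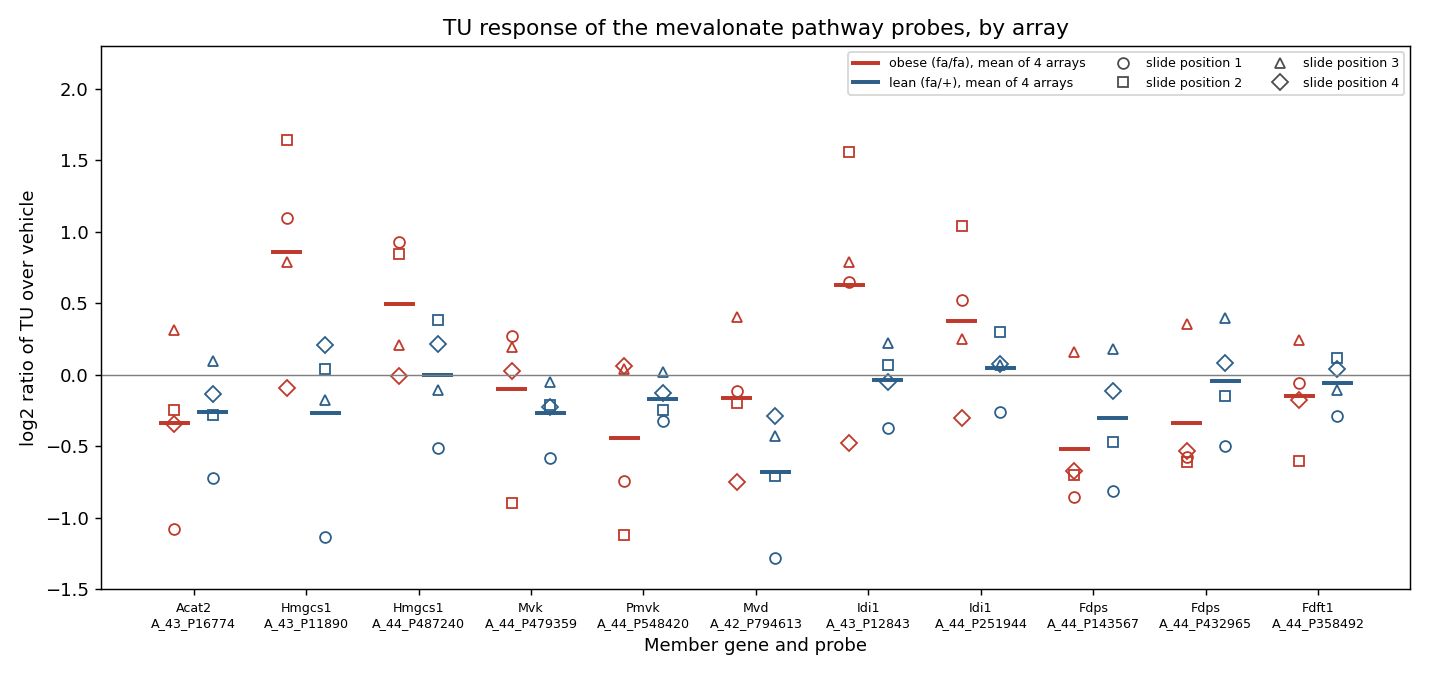
Log2 ratio of TU over vehicle (vertical axis) for the 11 member probes on the 4 obese and 4 lean arrays, where bars are means of 4 arrays and markers are slide positions. Hmgcs1 and Idi1 means lie above 0 in obese rats, and every lean Mvd value lies below 0.

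In lean rats the same question gave 0 called members of 11 probes, beside 48 called among all probes (0.179%). All 8 genes had a mean below 0 by their brightest probe, as had 5398 of 9968 named genes. Without lean array 1, 5 of the 8 did. The median log2 ratio of the 8 was -0.26, beside -0.019 over all probes. One unadjusted p under 0.05 was seen among the 11 member probes, against 15% of all probes, and it belonged to Mvd. Mvd and Mvk were below 0 on all 4 lean arrays, as were 18.5% of all probes. When the loess correction was replaced by centring each array on its median, 5 of the 11 probes were called, along with 6590 of all probes.

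Mvd had log2 ratios of -1.29, -0.71, -0.43 and -0.29 on lean arrays 1 to 4. The mean was -0.68 ± 0.19, with an adjusted p of 0.167, and without lean array 1 it was -0.47. Mvk had -0.59, -0.21, -0.05 and -0.22 (mean -0.27 ± 0.18, adjusted p = 0.539), and lean array 1 was the lowest for it too.

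The other 6 members had means between -0.30 and -0.035 in lean rats, with adjusted p from 0.508 to 0.970. Fdps gave -0.81, -0.47, 0.18 and -0.11 by its brighter probe, and Hmgcs1 gave -1.14, 0.04, -0.18 and 0.21 by its own. Acat2 gave -0.72, -0.28, 0.10 and -0.14. In all of these lean array 1 was the lowest, and it was the one array on which all 8 members lay below 0. Idi1 had -0.38, 0.07, 0.22 and -0.05 by its brighter probe, values on both sides of 0. Without lean array 1 the median of the 8 members was -0.11, with 5 below 0 and 3 above it. Pmvk averaged -0.17 ± 0.18 and Fdft1 -0.060 ± 0.12.

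Other genes of the sterol pathway were not called in lean rats either. In the list of sterol synthesis after squalene 0 of 11 measured genes passed the threshold and 9 had a mean below 0, with a median of -0.16. Dhcr7, which carries out the last reduction to cholesterol, was lowest at -0.56 ± 0.17 (adjusted p = 0.194), and Tm7sf2 highest at 0.077 ± 0.17. Of 8 measured genes of sterol sensing and uptake none was called, with Insig2 highest at 0.29 ± 0.16. None of 10 measured genes in the branches that draw isoprenoid units from the pathway, nor of 4 genes of mitochondrial HMG-CoA and ketone body synthesis, was called in lean or in obese rats, or differed between them by a called amount. Of all 9968 named genes 8 were called lower and 13 higher, and 5398 had a mean below 0.

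Whether TU acted differently in the 2 genotypes was tested as the obese minus lean difference of the log2 ratios, which uses the same arrays as both comparisons above. None of 11 member probes was called, and 1 of all probes was (0.00372%). The difference was 1.13 ± 0.39 for the brighter Hmgcs1 probe (unadjusted p = 0.0196, adjusted p = 0.641, 95% interval 0.23 to 2.03) and 0.50 ± 0.26 for the other. This Hmgcs1 probe was the one member probe with an unadjusted p under 0.05, against 7.61% of all probes. The brighter Idi1 probe differed by 0.66 ± 0.37 (95% interval -0.17 to 1.499) and Mvd by 0.51 ± 0.27 (-0.11 to 1.13). Taken position by position on the slides, the Hmgcs1 difference was 2.24, 1.60, 0.97 and -0.30, and that of Idi1 was 1.02, 1.49, 0.57 and -0.43. Position 4 was the one at which the ratio was lower in the obese than in the lean array for both genes. The other 5 members differed by -0.27 to 0.16, and the median over the 8 was 0.042. That median ran from -0.076 without obese array 3 to 0.21 without obese array 2, and was also below 0 without lean array 1 (-0.054). Msmo1, of the steps after squalene, had 1.10 ± 0.41 (adjusted p = 0.641).

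Obese and lean rats under vehicle were compared within Cy3. Here 3 of the 8 genes, Idi1, Hmgcs1 and Acat2, fell in obese livers by 5 of 11 probes, and none was higher. Of all 26883 probes, 6.66% were called lower and 9.24% higher. The 5 probes were also those whose obese and lean values did not overlap, with all obese values lower, which held for 11.5% of all probes. The median log2 difference of the 8 members was -0.51, beside 0.024 over all probes. With slide position as a block, or with arrays only centred on their medians, neither Hmgcs1 probe was called.

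Markers of other cell types were set beside this comparison. Under vehicle the log2 of the summed level of 2 lymphocyte markers was 7.81 to 7.88 in obese and 7.90 to 8.08 in lean livers. The groups did not overlap, but both markers were dim, at percentiles 16.1 and 28.4 of signal. For 3 erythroid markers the log2 of the sum was 12.57 to 14.94 in obese and 11.39 to 12.72 in lean livers, with overlap. Such a sum mostly follows its brightest marker. Of 8 hepatocyte markers 3 were called higher in obese livers, and of 4 stellate cell markers 1 was called lower. No Kupffer cell, sinusoidal endothelium, cholangiocyte, lymphocyte or erythroid marker was called. The part of these markers in the results was not tested.

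Idi1 fell furthest. Its brighter probe had log2 levels of 9.71, 9.15, 10.29 and 10.32 in obese vehicle livers, against 11.98, 11.91, 11.90 and 11.97 in lean vehicle livers. Every obese liver lay below every lean one, and the lean values were far closer together (SD 0.55 in obese and 0.036 in lean livers, n = 4 each). The difference was -2.07 ± 0.25, a 4.21-fold lower level (adjusted p = 0.00248). By the other probe the levels were 8.58, 7.86, 8.76 and 8.71 in obese livers, against 10.05, 9.78, 9.88 and 9.92 in lean livers, a 2.69-fold lower level (-1.43 ± 0.20, adjusted p = 0.00413). At each of the 4 slide positions the obese liver was lower, by between -2.77 and -1.62 for the brighter probe. Both calls held under every alternative run (adjusted p up to 0.0387 for the brighter and 0.0412 for the dimmer probe).

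Hmgcs1 had log2 levels of 12.11, 11.63, 12.66 and 12.96 in obese vehicle livers, against 13.81, 13.67, 13.32 and 13.48 in lean vehicle livers, by its brighter probe. The groups did not overlap, and obese arrays 1 and 2 were the lowest. Its level was 2.35-fold lower in obese livers (-1.23 ± 0.28, adjusted p = 0.0259). This call was lost when any 1 of the 4 lean arrays was left out (adjusted p from 0.0574 to 0.0790). The other probe gave 8.53, 8.30, 8.77 and 8.28 in obese livers, against 9.79, 9.41, 8.998 and 9.47 in lean livers, 1.93-fold lower (-0.95 ± 0.18, adjusted p = 0.0143), and this call held without any 1 array (adjusted p up to 0.0490). With slide position as a block the adjusted p was 0.0785 for the brighter and 0.0596 for the dimmer probe, at the same differences. With arrays only centred on their medians the differences were -2.58 ± 0.64 and -1.67 ± 0.44, with adjusted p of 0.117 and 0.129. With the signals processed by the scanner software the dimmer probe was at -0.45 (adjusted p = 0.181).

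Acat2 had log2 levels of 12.56, 12.40, 12.05 and 12.25 in obese vehicle livers, against 12.85, 13.11, 13.02 and 13.10 in lean vehicle livers. The groups did not overlap, although the gap was small. Its level was 1.63-fold lower in obese livers (-0.70 ± 0.12, adjusted p = 0.00866), and it was lower at each slide position, by -0.97 to -0.29. With arrays only centred on their medians the difference was -1.95 ± 0.76 and was not called (adjusted p = 0.240).

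No difference was called for the other 5 genes under vehicle. Mvk had 8.35, 10.14, 9.21 and 8.95 in obese livers, against 9.44, 9.92, 9.88 and 9.85 in lean livers (-0.61 ± 0.35, adjusted p = 0.268). Obese array 2 was the highest of all 8, and without it the difference was -0.94 (adjusted p = 0.0281). Pmvk had 11.27, 12.36, 11.24 and 11.33 in obese livers, against 11.12, 11.36, 11.17 and 11.41 in lean livers (0.28 ± 0.25), again with obese array 2 apart. Mvd was at -0.084 ± 0.27 and Fdps at 0.13 ± 0.20 by its brighter probe.

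Fdft1 and the second Fdps probe could be measured less closely. Fdft1 had 6.71, 10.42, 9.86 and 9.33 in obese vehicle livers, against 8.94, 9.53, 9.65 and 9.79 in lean vehicle livers (-0.40 ± 0.75, 95% interval -2.14 to 1.33). Fdps A_44_P432965 had 11.43, 14.67, 13.97 and 13.79 in obese livers, against 11.81, 13.73, 14.06 and 13.89 in lean livers (0.091 ± 0.78, 95% interval -1.72 to 1.90). Both were low at position 1 of a slide, in both channels, while the brighter Fdps probe read 15.11 in the obese and 14.52 in the lean liver there. The calls of Idi1 and Acat2 and that of the dimmer Hmgcs1 probe held without the arrays of position 1, and the brighter Hmgcs1 probe was then at -1.07 (adjusted p = 0.105).

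**Figure D3:**
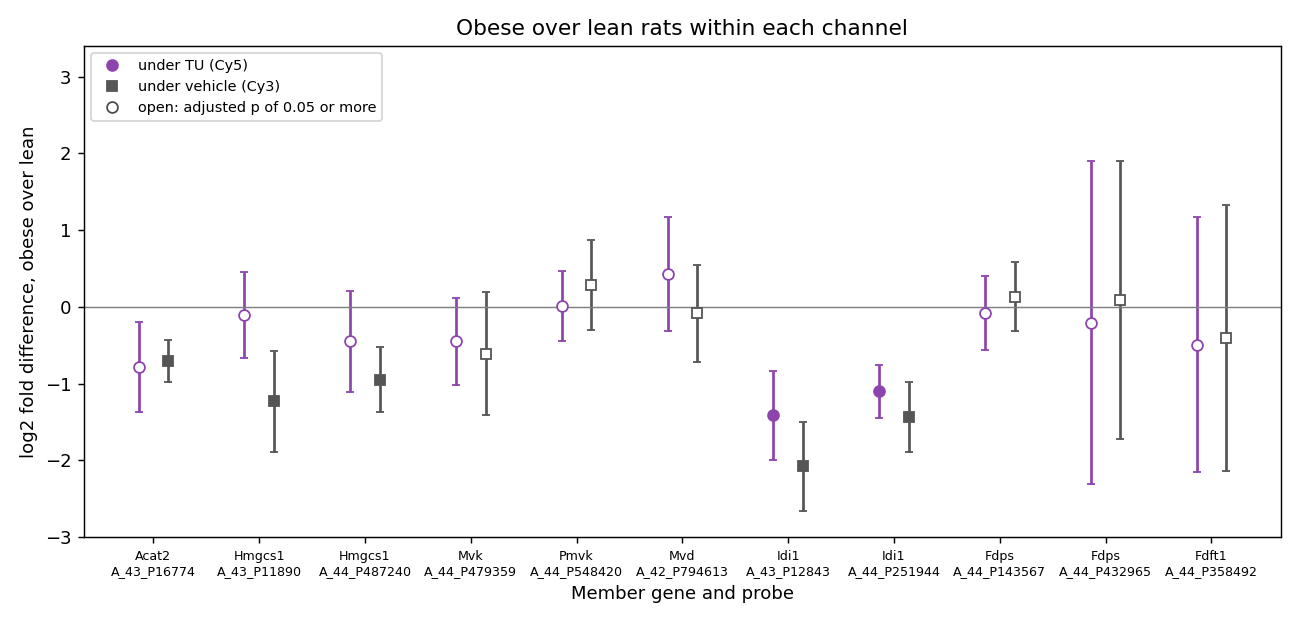
Log2 fold difference of obese over lean rats (vertical axis) for each member probe under TU (circles) and under vehicle (squares), with 95% intervals of the limma fit over 4 arrays per genotype. Filled markers have an adjusted p under 0.05: 2 under TU, both of Idi1, and 5 under vehicle.

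Under TU, compared within Cy5, Idi1 was the one member called, lower in obese livers by both probes, beside 8.14% of all probes called lower and 13.5% called higher. Its brighter probe had log2 levels of 10.35, 10.703, 11.08 and 9.84 in obese TU livers, against 11.60, 11.98, 12.12 and 11.92 in lean TU livers. That is 2.66-fold lower (-1.41 ± 0.25, adjusted p = 0.00688), and it was lower at all 4 slide positions, by -2.08 to -1.05. The other probe had 9.10, 8.90, 9.01 and 8.40 in obese TU livers, against 9.79, 10.08, 9.95 and 9.99 in lean TU livers, 2.14-fold lower (-1.10 ± 0.15, adjusted p = 0.00243). Both probes had groups that did not overlap, as in 10.9% of all probes. With arrays only centred on their medians, where no probe of the array was called, the differences were -1.77 ± 0.62 and -1.30 ± 0.55, and both calls were lost (adjusted p = 0.926 and 0.963). The median log2 difference of the 8 members was -0.28, beside 0.031 over all probes. Under TU the log2 of the summed level of 4 stellate cell markers was 11.26 to 12.86 in obese and 10.78 to 11.09 in lean livers. That of 6 Kupffer cell markers was 13.43 to 13.85 in obese and 14.07 to 14.15 in lean livers. Neither list overlapped between the genotypes. Of all probes, 17.1% had every obese value above the lean ones and 10.9% every obese value below them. The part of these lists in the results was not tested.

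Acat2 was also below its lean level under TU, with 11.48, 12.15, 12.36 and 11.91 in obese livers, against 12.13, 12.83, 13.12 and 12.96 in lean livers. The ranges overlapped through lean array 1, and the difference of -0.78 ± 0.25 had an adjusted p of 0.0622. With slide position as a block it was called (adjusted p = 0.00671), and so was Mvk (-0.45 ± 0.25, adjusted p = 0.0217 with the block and 0.240 without it).

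Hmgcs1 did not differ detectably between the genotypes under TU. Its brighter probe had 13.21, 13.27, 13.44 and 12.87 in obese TU livers, against 12.68, 13.71, 13.14 and 13.69 in lean TU livers (-0.10 ± 0.24, 95% interval -0.66 to 0.45). By the other probe the difference was -0.45 ± 0.29 (95% interval -1.11 to 0.21). The genotypes overlapped by both probes. The change in the genotype difference between TU and vehicle is the interaction given above, whose adjusted p was 0.641 for Hmgcs1, so a call under vehicle and none under TU does not show that they differ.

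The remaining members under TU lay between -0.49 (Fdft1, ± 0.72) and 0.43 (Mvd, ± 0.32), with adjusted p from 0.396 to 0.974 apart from Mvk. Mvd was the member with the highest value, 11.83, 11.10, 10.91 and 10.34 in obese livers, against 10.02, 10.77, 10.69 and 10.98 in lean livers, and the genotypes overlapped.

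Across the 4 conditions, the brighter Idi1 probe averaged 10.49 ± 0.53 in obese TU, 9.87 ± 0.55 in obese vehicle, 11.91 ± 0.22 in lean TU and 11.94 ± 0.036 in lean vehicle livers (SD, n = 4 each). The lean conditions were thus above both obese ones, and neither TU and vehicle in lean rats nor TU and vehicle in obese rats differed by a called amount. For Hmgcs1 the brighter probe averaged 13.20 ± 0.24 in obese TU, 12.34 ± 0.59 in obese vehicle, 13.30 ± 0.49 in lean TU and 13.57 ± 0.22 in lean vehicle livers. The mean was lowest in obese vehicle livers, whose range of 11.63 to 12.96 overlapped those of obese TU and lean TU livers but not that of lean vehicle livers. Acat2 averaged 11.98 ± 0.38 in obese TU, 12.32 ± 0.22 in obese vehicle, 12.76 ± 0.44 in lean TU and 13.02 ± 0.12 in lean vehicle livers, an order in which the ranges of neighbours overlapped.

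Genes around the pathway differed between genotypes in both directions. Under vehicle, 3 of 11 measured genes of sterol synthesis after squalene were called lower in obese livers and 1 higher, beside 5.50% of named genes lower and 11.3% higher. Sqle, squalene epoxidase, which acts directly after Fdft1, was lowest at -1.12 ± 0.088 (adjusted p = 0.000556). Ebp (-1.05 ± 0.22) and Hsd17b7 (-0.39 ± 0.090) were the others that fell. Among 8 measured genes of sterol sensing and uptake only Mylip was called (-0.45 ± 0.13, adjusted p = 0.0492), with Scap highest (0.44 ± 0.21) and Insig1 lowest (-0.63 ± 0.41).

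Of the 10 branch genes, Rabggta, a subunit of the geranylgeranyl transferase of Rab proteins, was the one called under vehicle (-1.35 ± 0.14, adjusted p = 0.00152), and Dhdds was highest (0.52 ± 0.20, adjusted p = 0.127). Of the 4 genes of the mitochondrial route, which also makes HMG-CoA but for ketone bodies, 2 were higher in obese livers. Among them Acat1, the mitochondrial counterpart of Acat2, was at 0.58 ± 0.10 (adjusted p = 0.0114). Bdh1 was lowest at -0.68 ± 0.28 (adjusted p = 0.145). The cytosolic and mitochondrial thiolases, Acat2 and Acat1, thus had opposite signs under vehicle. Under TU no difference was called for Acat1 (0.075 ± 0.18, adjusted p = 0.812).

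Under TU, Rabggta (-1.15 ± 0.13, adjusted p = 0.00128) and Ebp (-1.21 ± 0.16, adjusted p = 0.00287) were again lower in obese livers. The steps after squalene then held 1 gene called lower and 1 higher of 11, beside 7.52% and 15.5% of named genes. Sqle was at -0.54 ± 0.27 (adjusted p = 0.203). Among the genes of sterol sensing and uptake, Scap was at 0.56 ± 0.20 and Mylip at -0.17 ± 0.096, neither of them called.

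The members' TU responses rose and fell together over arrays only in part. The mean log2 ratio of the 8 members was -0.10, -0.072, 0.37 and -0.30 on obese arrays 1 to 4, against -0.69, -0.21, -0.031 and -0.086 on lean arrays 1 to 4. Over the 8 arrays, Pearson's r between members ran from 0.89 for Hmgcs1 with Idi1 and 0.87 for Acat2 with Fdps down to -0.69 for Pmvk with Idi1. These values share arrays, dyes and normalisation and are a description. On obese array 2, the array with the widest spread of ratios, Hmgcs1 and Idi1 were at 1.64 and 1.56 while Pmvk and Mvk were at -1.12 and -0.90. The probe pairs of 1 gene followed each other closely in the ratio, with r of 0.92 for Hmgcs1, 0.94 for Idi1 and 0.98 for Fdps, although the vehicle levels of the Fdps pair had an r of -0.39.

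Among genes outside the lists, the 5 whose TU ratios most resembled the members' mean over the 8 arrays were Aacs (r = 0.95), Celf1 (0.88), Cdc37l1 (0.87), Selenos (0.85) and Top1 (0.85). Aacs encodes acetoacetyl-CoA synthetase, which activates acetoacetate in the cytosol. Its log2 ratios were -0.11, -0.31, 0.085 and -0.55 on obese arrays 1 to 4, against -0.82, -0.47, -0.31 and -0.28 on lean arrays 1 to 4. Obese array 3 was the one above 0 and lean array 1 the lowest, the extremes of the members' mean as well. Aacs was picked for its likeness to that mean on these arrays, so shared extremes are no separate result. These 5 are the highest of all named genes measured outside the lists, over only 8 arrays that share dyes and normalisation.

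**Figure D4:**
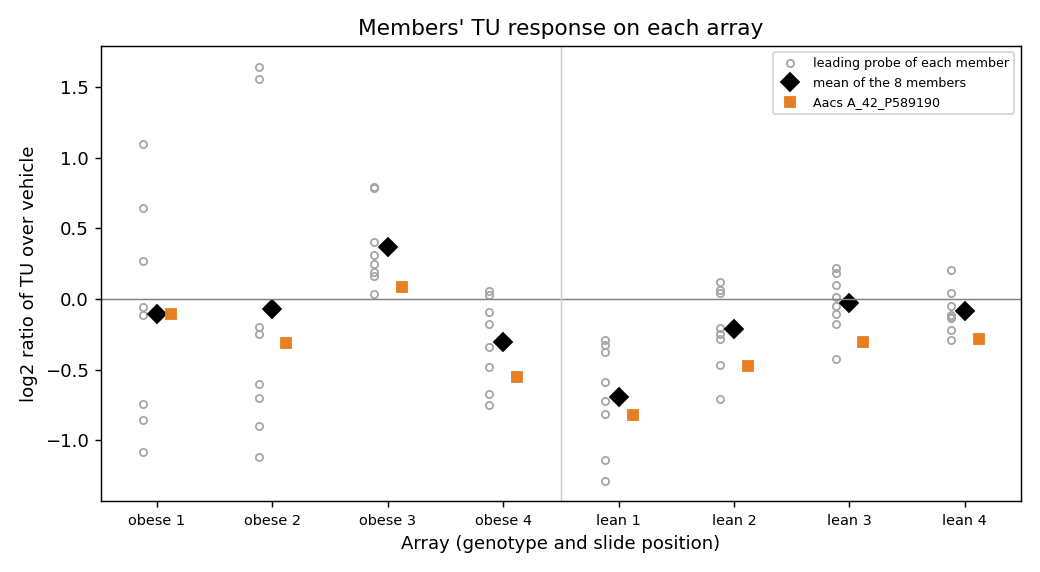
Log2 ratio of TU over vehicle (vertical axis) on each obese and lean array for the brightest probe of each member (open circles), their mean (diamonds) and Aacs (squares). The members' mean is highest on obese array 3 (0.37) and lowest on lean array 1 (-0.69). Aacs, picked for its likeness to this mean, has the highest and lowest value on the same arrays.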

How the data were processed

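The deposited scanner files hold spot intensity in Cy3 and Cy5, per the file headers written by Agilent Feature Extraction 10.7.3.1. The series' deposited value table holds log2 ratios of Cy5 over Cy3, since each column had a slope of 3.32 on the deposited log10 ratio of its array, per the file headers. The sources used here state nothing more on it. Median signals were background corrected (normexp, offset 50), loess-normalised within arrays with control spots at weight 0, and averaged per probe. Probes had to be well above background in either channel on 4 of 8 arrays, with 2 values per genotype. Probes were named through their accessions (17010 of 41012). Channels were made comparable between arrays by quantile scaling of the mean signal (Aquantile). The depth of arrays is limited by their number, 4 per genotype.

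Ratios and each channel were fitted with limma 3.58.1 in R 4.3.3 and adjusted over 26883 probes. The comparisons share arrays, so that the obese minus lean TU response is the TU-channel minus the vehicle-channel difference. The fits were tested on simulated data with 200 planted probes. Of those changed by 1 on the log2 scale, 94% were recovered for TU in lean rats, 96% for TU in obese rats, 86% for the difference, 71% for obese over lean under vehicle and 79% under TU. Between 4 and 14 unplanted probes were called as well. The planted probes were drawn from all tested probes, with independent noise. For TU the median SE over all probes was 0.072, whereas the members had 0.12 to 0.28. These rates therefore do not hold for the members. Arrays of the same slide position deviated together in Cy5 (r from 0.16 to 0.61 at the 4 positions) but not at every position in Cy3 (-0.058 to 0.61) or in the ratio (-0.10 to 0.16). The position is the replicate number, per the file headers, and the block is therefore given beside the results under TU.

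The members and gene lists were chosen with earlier results of these data known. Named were all members, the lowest and highest gene of each list and the 5 genes most like the members. Other called list genes were named after their values were seen. Some genes of these lists are not reported here. Alternatives covered background correction, filter, normalisation, probe choice, variance settings, block and left-out arrays.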

Additional observations from a re-analysis of the deposited data

Results flagged for a closer look

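In sets of 4 arrays, a lone highest or lowest value was marked where its gap to the nearest of the others was too large a share of the whole range by Dixon's 95% critical value. This happened in 6 of 66 sets, or 9.09%. The critical value is set for about 1 in 20 among independent sets of normally distributed values. These sets share arrays, and each ratio is made from the Cy3 and Cy5 levels, so the rates cannot be compared. No explanation was weighed for any of them.

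In obese rats, Pmvk stood at 12.4 in the vehicle liver of array 2, against 11.24 to 11.33 in the other 3, and at 10.5 in the TU liver of array 1, against 11.24 to 11.39. The dimmer Fdps probe had a log2 ratio of 0.35 on obese array 3, against -0.61 to -0.54 on the other 3. In lean vehicle livers, Mvk stood at 9.44 on array 1 (others 9.85 to 9.92), the brighter Fdps probe at 14.7 on array 4 (others 14.51 to 14.52) and the dimmer Fdps probe at 11.8 on array 1 (others 13.73 to 14.06).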

How the results depend on the processing

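In obese over lean rats, the directions of both Idi1 probes and Acat2 under vehicle and TU, and of both Hmgcs1 probes under vehicle, held under every alternative run. In what follows, lean, obese, difference, vehicle and TU stand for TU over vehicle in lean rats, the same in obese rats, the obese minus lean TU response, and obese over lean under vehicle and under TU. The cause of each change was not tested. The slide as a block was not run, since each genotype had its own slide. Leaving out both arrays of slide position 1 was chosen after seeing the data.

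Probes called in all were 48 (lean), 3 (obese), 1 (difference), 4274 (vehicle) and 5815 (TU). Lean gave 327 without background correction, 0 with trend and robust settings, 6590 with median centring, 0 with scaled ratios, 275 with processed signals, 278 with the authors' ratios, 310 with lean arrays alone and 4 without position 1. Obese gave 23, 0, 0, 0, 209, 203, 0 and 0 in that order. Difference gave 0, 0, 0, 0, 2 and 2 in the same order up to the authors' ratios, and 0 without position 1. Vehicle gave 451 with median centring and 6880 with processed signals, and TU gave 0 and 8862. Median centring moved the median of all probes to -0.21 (lean), 0.21 (difference) and -0.16 (vehicle). It split the calls into 326 higher and 6264 lower (lean) and 6 higher and 445 lower (vehicle), where vehicle had 2484 higher and 1790 lower, or 4210 and 2670 with processed signals. With the replicate block the calls were 23 (lean), 0 (obese), 0 (difference) and 1992 (vehicle).

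Member probes called under vehicle were 5, but 3 with the brightest probe of each gene, 3 with the replicate block and 2 with median centring. Under TU they were 2, but 1 with the brightest probe, 4 with the replicate block, 0 with median centring and 4 without position 1. In lean they were 0, but 5 with median centring. The replicate block left the Hmgcs1 probes under vehicle at adjusted p = 0.0785 and 0.0596, within a range of 0.00767 to 0.117 for the brighter and 0.00645 to 0.181 for the dimmer probe over all alternatives. Medians of the 8 members were -0.76 (lean), 0.75 (difference), -1.41 (vehicle) and -0.70 (TU) with median centring, 0.41 (obese) and 0.54 (difference) with scaled ratios, and -0.93 (vehicle) and -0.59 (TU) with processed signals.

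Signs changed as follows, none of them in a called value. With median centring they were -0.47 for the dimmer Idi1 probe (lean), 0.016 for Mvk, 0.049 for Mvd and 0.015 for Fdft1 (obese), 0.70 for Acat2, 0.48 for Pmvk, 0.67 and 0.55 for Fdps and 0.58 for Fdft1 (difference), -0.75 for Pmvk and -1.40 and -1.33 for Fdps (vehicle), and -0.28 for Pmvk (TU). With scaled ratios they were 0.055 for Idi1 and 0.11 for the dimmer Fdps probe (lean), 0.41 for Acat2, 0.37 for Mvk, 0.66 for Mvd, 0.49 for the dimmer Fdps probe and 0.42 for Fdft1 (obese), and 0.53 for Acat2, 0.099 and 0.38 for Fdps and 0.49 for Fdft1 (difference). With processed signals, and with the authors' ratios, they were 0.044 for Idi1 and 0.012 for Fdft1 (lean) and 0.011 for Mvk (obese). Processed signals alone gave -0.47 and -0.36 for Fdps (vehicle), 0.30 for the dimmer Hmgcs1 probe and -0.12 for Pmvk (TU). Without background correction they were 0.0092 for the dimmer Hmgcs1 probe (lean) and -0.0076 for Pmvk (TU). Quantile normalisation gave -0.068 for the dimmer Fdps probe (vehicle). Without position 1 they were 0.023 and 0.16 for Hmgcs1, 0.078 for Idi1, 0.11 for the dimmer Fdps probe and 0.017 for Fdft1 (lean), 0.015 for Acat2 and -0.067 for Mvk (difference), -0.017 for Fdps and 0.21 for Fdft1 (vehicle), and -0.034 for Mvd and 0.011 for Fdft1 (TU).

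Leaving out 1 array at a time gave 1 to 1192 calls in all (lean, the most without obese array 2), 0 to 2 (obese), 0 to 3 (difference), 1922 to 5862 (vehicle, fewest without lean array 3 and most without obese array 1) and 3838 to 8823 (TU). Medians of the members ran from -0.79 (without obese array 2) to -0.33 (without obese array 1) under vehicle and from -0.49 (without lean array 1) to -0.11 (without obese array 1) under TU. In lean, the ranges were -0.43 to 0.023 and -0.14 to 0.16 for Hmgcs1, -0.12 to 0.078 and -0.038 to 0.15 for Idi1, -0.19 to 0.11 for the dimmer Fdps probe and -0.12 to 0.017 for Fdft1. In obese, they were -0.23 to 0.16 for Mvk, -0.36 to 0.029 for Mvd and -0.28 to 0.0034 for Fdft1. In the difference, they were -0.30 to 0.17 for Acat2 and -0.22 to 0.064 for Fdft1. Under vehicle, they were -0.33 to 0.15 for Mvd, -0.0077 to 0.33 and -0.43 to 0.77 for Fdps and -0.85 to 0.39 for Fdft1. Under TU, they were -0.31 to 0.031 for Hmgcs1, -0.087 to 0.21 for Pmvk, -0.26 to 0.067 and -0.88 to 0.55 for Fdps and -0.88 to 0.27 for Fdft1.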
